A study of Mus musculus with 40 samples.

Results

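Gene expression in mammary glands on day 13 of pregnancy was compared between groups of mice with a mammary knockout of Ezh2. One group carried a single functional Ezh1 allele and the other carried both Ezh1 alleles. All genes with at least 1 FPKM in either group were taken, which gave 13385 of the 22552 genes in the deposited table. FPKM is a count of fragments divided by transcript length and by the fragments mapped in the library. The first group, E1+/-E2KO, is E1+/-;E2f/f with the control transgene, and the second, E2KO, is Ezh2f/f with the same transgene. That transgene is MMTV-Cre, line A, whose recombinase removes the floxed Ezh2 in the mammary gland. Both groups thus carry Ezh2f/f and MMTV-Cre and differ in the Ezh1 genotype. Values from whole tissue do not show which cell types lost Ezh2. The Ezh1 allele is described as a knockout and not as floxed. Mice were outbred and untreated, and no age is stated for them. Poly(A) RNA was taken from whole mammary tissue, with 3 libraries in each group, and the labels do not say whether these came from separate mice. MMTV-Cre controls were not used.

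The table holds 1 value per gene and group, the authors' pooled FPKM. There is no replicate value, SD or p-value for any gene, so no difference below has a replicate check, and every count describes these pooled values. A difference is log2(FPKM + 1) in E1+/-E2KO minus that in E2KO. The added 1 shrinks the differences of genes at few FPKM. Genes were called higher or lower past the threshold where this difference was 1 or more in size, which is 2-fold or more, and fold values are ratios of FPKM. Read depth is unknown.

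Polycomb repressive complex 2 (PRC2) is built on EED and SUZ12 and takes either EZH1 or EZH2 as its catalytic subunit. The complex methylates a lysine on the tail of histone H3, a mark of silenced developmental genes. EZH2 is found mostly in dividing cells, and EZH1 also in cells that have left the cell cycle. During pregnancy, prolactin acting through the transcription factor STAT5 turns the mammary epithelium into milk-producing alveoli that grow into a fat pad of adipocytes, fibroblasts, vessels, nerves and immune cells. In whole tissue, fewer cells of a type and less RNA per cell cannot be told apart.

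Across all 13385 genes, 399 genes (2.98%) were higher past the threshold in E1+/-E2KO and 95 (0.710%) were lower. The median difference was -0.01, and 83.6% of genes lay between -0.5 and 0.5. Among the 12710 protein-coding genes, 294 (2.31%) were higher and 50 (0.393%) lower. The 12734 genes with at least 1 FPKM in both groups gave 266 higher and 58 lower, while the 651 genes that reached 1 FPKM in only 1 group gave 133 and 37. Small nucleolar and micro RNA genes made up 243 of the genes kept and gave 90 higher and 37 lower, and 97 of these 243 were listed at 0 in 1 group. Of 311 genes that only just entered, with a higher value between 1 and 1.25 FPKM, 7 were higher past the threshold. Genes left out, under 1 FPKM in both groups, could not pass it because of the added 1. The summed FPKM was 658155 in E1+/-E2KO and 728736 in E2KO, of which milk protein genes took 7.66% and 15.1%. Scaling both groups to a common sum moved the median of all genes by 0.13 and gave 544 higher and 73 lower.

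**Figure D1:**
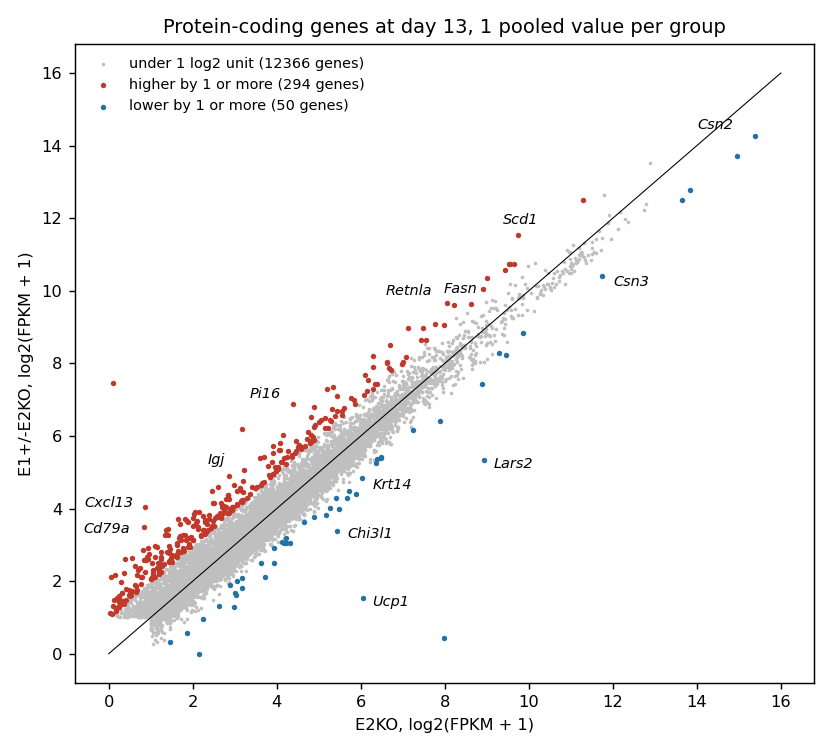
Pooled level, in log2(FPKM + 1), of each of the 12710 protein-coding genes in the E2KO group (horizontal axis) and the E1+/-E2KO group (vertical axis) on day 13 of pregnancy, 1 point per gene with no error. The line marks equal levels, and 294 genes past the threshold (red) lie above it and 50 (blue) below it.

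The targeted genes were examined first. Ezh1 was at 6.17 FPKM in E1+/-E2KO and 9.50 in E2KO, a ratio of 0.649. On day 18 of pregnancy the same genotypes gave 3.41 and 7.34, a ratio of 0.465. In Ezh1 knockout glands, the background for this gene, the level was 1.06 on day 13 and 0.627 on day 18, below every E1+/-E2KO and E2KO value. Ezh2 was at 9.54 in E1+/-E2KO and 13.7 in E2KO, a difference of -0.48. In Ezh1 knockout glands it was at 13.8, so the E2KO value was about equal to that group on day 13. On day 18 Ezh2 was at 6.24 in E1+/-E2KO, 6.41 in E2KO and 9.26 in Ezh1 knockout glands. The exon of the deletion is not resolved by a value per gene. None of the 13 PRC2 subunits and H3 demethylases passed the threshold, and their median was -0.17. Of these, 12 lay below 0, including Suz12 at 22.0 against 26.6 FPKM and Eed at 15.4 against 16.6, the core partners of the catalytic subunit. Phf1, an accessory subunit, lay above 0 at 10.2 against 6.20. PRC1, the partner complex that binds the mark, had 0 of 18 subunits past the threshold and a median of -0.06, which turned positive under a common sum. None of the 33 genes kept among the 40 nearest neighbours of Ezh1 passed the threshold. Their differences ran from -0.39 to 0.75, with Stat5a at 43.6 against 57.5 FPKM and Stat5b at 23.6 against 26.6 among them.

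Gene lists that include known Polycomb targets were read next. Of 7 cyclin-dependent kinase inhibitors 6 were kept, 1 was higher past the threshold and the median was 0.72. That median was 0.62 over the 5 members at 1 FPKM or more in both groups. Cdkn2a, whose products p16 and p19 stop the cell cycle and which is a textbook PRC2 target, was at 5.07 FPKM in E1+/-E2KO and 0.920 in E2KO, a 5.51-fold ratio. It was the only member past the threshold and entered through E1+/-E2KO alone. Its neighbour Cdkn2b was at 3.84 against 1.73, and Cdkn2c at 144 against 76.5, both short of the threshold. Cdkn1b was the only kept member of this list below 0, at 30.7 against 40.5. Of the 39 Hox genes, which pattern the body axis, 23 were kept, none passed the threshold and the median was 0.35. Over all 39 the median was 0.11. The highest differences were those of Hoxc8 at 15.2 against 7.66 FPKM, Hoxc9 at 4.79 against 2.22, Hoxc10 at 10.6 against 5.63 and Hoxc6 at 10.5 against 5.64, all in the HoxC cluster. Of 28 other developmental Polycomb targets only 8 reached 1 FPKM. Of those 8, 6 lay above 0, none was higher past the threshold and the median was 0.40. That median was 0.05 over all 28, and it changed sign with a filter of 5 FPKM. Barx2, a homeobox gene, was lower past the threshold, at 41.4 against 88.0 FPKM. Transcripts of the remaining 20 stayed under 1 FPKM in both groups. The imprinted growth genes had a median of 0.36 over 13 kept, with Mest higher past the threshold at 56.9 against 26.5 FPKM.

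Milk protein genes were lower in E1+/-E2KO. Of 16, all kept, 6 were lower past the threshold, 0 were higher, and the median was -0.81. Csn3, which codes for kappa-casein, the protein that stabilises the casein micelle, was at 1367 FPKM against 3437. The calcium-binding caseins Csn1s2a, at 13312 against 32011, Csn2, at 19742 against 42713, and Csn1s1, at 6978 against 14527, were lower by similar ratios of 0.416, 0.462 and 0.480. Glycam1, a milk mucin, was at 5755 against 12834 and Muc15, a membrane mucin, at 299 against 699. The 4 casein genes together gave 41399 FPKM in E1+/-E2KO and 92689 in E2KO. Wap, a whey protein, was at 169 against 291, short of the threshold. Lalba, the alpha-lactalbumin needed for lactose synthesis, was the only member above 0, at 121 against 99.4.

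Promoters of the 4 lower milk genes present in the RefSeq promoter table (GRCm38.p6, 250 bases before to 50 after the start) are shown because each holds TTCNNNGAA, the palindromic core of a STAT5 site. Csn3 and Muc15 had no entry. Windows run 5′ to 3′ on the gene's strand, and capitals mark the match, which was searched on both strands. The windows are chr5:87699376-87699675 on the minus strand for Csn2, chr5:87774200-87774499 on the plus strand for Csn1s2a, chr5:87665958-87666257 on the plus strand for Csn1s1 and chr15:103565032-103565331 on the minus strand for Glycam1.
Csn2: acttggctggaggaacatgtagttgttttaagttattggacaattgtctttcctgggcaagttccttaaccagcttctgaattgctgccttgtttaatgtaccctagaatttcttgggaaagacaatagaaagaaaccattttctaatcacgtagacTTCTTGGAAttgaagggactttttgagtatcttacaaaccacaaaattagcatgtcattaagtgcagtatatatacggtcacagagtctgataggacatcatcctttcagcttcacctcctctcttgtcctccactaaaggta
Csn1s2a: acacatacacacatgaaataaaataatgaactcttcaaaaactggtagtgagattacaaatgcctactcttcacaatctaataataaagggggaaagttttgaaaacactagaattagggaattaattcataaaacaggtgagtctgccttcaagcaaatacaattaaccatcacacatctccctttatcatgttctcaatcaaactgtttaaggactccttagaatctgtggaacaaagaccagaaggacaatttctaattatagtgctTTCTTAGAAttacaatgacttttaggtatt
Csn1s1: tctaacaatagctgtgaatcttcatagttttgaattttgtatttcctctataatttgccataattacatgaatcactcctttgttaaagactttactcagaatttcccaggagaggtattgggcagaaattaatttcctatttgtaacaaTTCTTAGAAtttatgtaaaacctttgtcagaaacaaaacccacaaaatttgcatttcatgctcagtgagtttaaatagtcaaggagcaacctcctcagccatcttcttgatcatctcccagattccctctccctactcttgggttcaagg
Glycam1: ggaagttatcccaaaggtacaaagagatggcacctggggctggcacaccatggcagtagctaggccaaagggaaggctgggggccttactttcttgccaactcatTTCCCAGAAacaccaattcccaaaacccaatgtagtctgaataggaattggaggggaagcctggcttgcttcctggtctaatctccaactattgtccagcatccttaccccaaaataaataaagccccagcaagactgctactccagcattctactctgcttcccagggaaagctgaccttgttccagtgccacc
The match begins at -93 from the start in Csn2, -100 in Csn1s1 and -145 in Glycam1, and at 20 past it in Csn1s2a. Of the other milk protein genes kept, 8 had a promoter and 0 of those 8 held the letters, while 8.30% of 32851 windows of the same length did. The split was looked at after the values were known, and a match is not evidence of binding.

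Other epithelial genes were lower together at smaller sizes. Of 8 genes of milk fat globule secretion 1 was lower past the threshold, Cidea, a lipid droplet protein shared with brown fat, and the median was -0.38. Fabp3, a fatty acid carrier, was at 384 against 719 FPKM, and Xdh, which envelops the droplet with butyrophilin, at 93.4 against 99.9. None of the 16 alveolar transporters kept passed, with a median of -0.32. All 17 luminal epithelial genes lay below 0 without passing the threshold, from -0.86 to -0.37 with a median of -0.63. Krt18, a luminal keratin, was at 261 against 458 FPKM, Krt8, its partner, at 228 against 399.5, and Epcam, a surface adhesion protein, at 188 against 320. Among 17 mammary transcription factors 1 was lower past the threshold, Tcfap2b at 2.49 against 8.09, and the median was -0.47. Elf5, which drives alveolar differentiation, was at 248 against 402 and Gata3, of the luminal lineage, at 30.7 against 50.1. Esr1, the oestrogen receptor, lay above 0 at 9.09 against 5.95.

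Basal and myoepithelial genes, which mark the contractile layer around the alveoli, had 4 of 14 lower past the threshold and a median of -0.83. The 4 were Krt14 at 27.6 against 63.9 FPKM, Krt5 at 40.5 against 83.1, the smooth muscle actin Acta2 at 458 against 923, and Lgr5, a stem cell receptor, at 0.254 against 1.76. Trp63, the transcription factor that maintains these cells, was at 9.65 against 19.3, just short. Procr was the only member above 0, at 13.6 against 9.35. Krt15, a basal keratin that is not in the list, was at 15.2 against 37.8. All 26 genes of DNA replication and mitosis lay below 0, with none past the threshold and a median of -0.61. Ccna2, a cyclin of S phase and mitosis, was at 31.9 against 55.7, Ccnb1 at 17.5 against 28.6, Mki67 at 19.5 against 27.8 and the replication helicase subunit Mcm2 at 16.7 against 21.3. Differences ran from -0.82 for Tpx2, a spindle protein, to -0.05 for E2f1, a regulator of S phase entry.

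Hormone pathway genes mostly lay below 0 too, by less. Of 14 genes of prolactin and STAT5 signalling 10 lay below 0, none was lower past the threshold and the median was -0.15. The receptor Prlr was at 8.03 against 8.71 FPKM, the kinase Jak2 at 13.7 against 15.8, and the direct STAT5 targets Cish and Socs2 at 40.2 against 43.9 and 30.9 against 39.3. Igf1, a growth factor made by stroma and fat, was higher past the threshold at 50.9 against 21.6, and Ghr, the growth hormone receptor, was at 319 against 180. Of 12 paracrine ligands and receptors kept 8 lay below 0, with a median of -0.26. Fgf10, a stromal growth factor for the ducts, was higher past the threshold at 22.9 against 10.2. Tnfsf11, the RANK ligand that relays progesterone, was at 13.7 against 21.2 and Areg, the ligand that relays oestrogen, at 17.6 against 22.3.

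Genes that make fatty acids and triglycerides were higher in E1+/-E2KO. Of 24 such genes 23 were kept, 15 were higher past the threshold, 0 were lower, and the median was 1.12. In order along the pathway, Slc25a1, which exports citrate from mitochondria, was at 362 FPKM against 102. Acly, which splits citrate to acetyl-CoA, was at 397 against 171, and Acss2, which makes acetyl-CoA from acetate, at 110.2 against 28.4. Me1, which supplies NADPH, was at 505 against 139, Acaca, the first committed enzyme, at 157 against 77.5 and Fasn, the synthase, at 772 against 299. For the steps after the synthase, the elongase Elovl6 was at 90.5 against 27.3, the desaturase Scd1 at 2983 against 852, and Dgat2, which makes triglyceride, at 503 against 177. Scd2, a further desaturase, Dgat1, which also makes triglyceride, and Aacs, which activates acetoacetate, passed with differences of 1.26, 1.11 and 1.10. Ratios among the 15 ran from 2.02 for Acaca to 3.87 for Acss2.

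Regulators of this pathway did not all share the difference. Mlxipl, the carbohydrate-responsive factor ChREBP, was higher past the threshold at 18.3 against 6.12 FPKM, and so was Thrsp at 1515 against 695. Srebf1, the sterol-responsive factor SREBP1, was at 97.3 against 93.6. Insig1, which holds SREBP in the endoplasmic reticulum, was higher past the threshold at 89.5 against 34.5. The members below 0 were Olah, the thioesterase that sets the medium chain length of milk fat, at 39.2 against 78.4, the desaturases Fads1 at 92.0 against 128 and Fads2 at 101 against 131, and Agpat6, of milk triglyceride synthesis, at 44.1 against 52.2. The 15 kept genes of cholesterol synthesis and uptake, a related pathway, gave 0 past the threshold and a median of 0.30, with the highest values in Lss at 10.5 against 5.37 and Fdps at 63.3 against 38.0.

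Promoters of Fasn (chr11:120824498-120824797, minus strand) and Acss2 (chr2:155517793-155518092, plus strand) from the same table are shown because lipogenic genes moved together. Capitals mark CCAAT, the core bound by the factor NF-Y, on either strand, so that ATTGG is a match on the other strand.
Fasn: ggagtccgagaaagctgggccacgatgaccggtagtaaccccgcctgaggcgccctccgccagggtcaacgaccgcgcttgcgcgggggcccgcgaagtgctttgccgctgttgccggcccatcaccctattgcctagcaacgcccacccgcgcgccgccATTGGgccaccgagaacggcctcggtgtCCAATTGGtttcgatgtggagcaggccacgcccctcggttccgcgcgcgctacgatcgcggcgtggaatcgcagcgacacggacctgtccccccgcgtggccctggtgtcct
Acss2: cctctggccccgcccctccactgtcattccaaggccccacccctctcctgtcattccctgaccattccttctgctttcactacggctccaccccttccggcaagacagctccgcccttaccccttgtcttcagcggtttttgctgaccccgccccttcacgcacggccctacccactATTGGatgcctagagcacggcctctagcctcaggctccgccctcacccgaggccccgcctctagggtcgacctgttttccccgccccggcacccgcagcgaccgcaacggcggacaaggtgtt
In Fasn the capitals CCAATTGG hold 2 overlapping matches, one on each strand, and a further match lies upstream. CCAAT was found in 8 of 11 genes past the threshold with a promoter, in 3 of 6 of the others kept and in 37.4% of all windows. The sterol element TCACNCCAC was found in 1 of the 11 (1.24% of windows) and the E-box CACGTG in 3 of the 11 (7.15% of windows). TTCNNNGAA was in 0 of the 11.

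White adipocyte genes were higher beside the lipogenic ones. All 18 lay above 0, 7 passed the threshold and the median was 0.89. Retn, the adipokine resistin, was at 1306 FPKM against 512, Adipoq, adiponectin, at 1707 against 739, Cfd, the adipsin protease, at 5776 against 2514, and Lpl, which frees fatty acids from lipoproteins, at 1056 against 478. Pnpla3, a lipid droplet lipase, had the largest ratio, at 41.7 against 12.0. Plin4, a droplet coat protein, and Acvr1c, a receptor of fat cells, also passed. Fabp4, the fatty acid carrier of adipocytes, was at 11856 against 7601 and Pparg, the master regulator, at 72.8 against 47.8, short of the threshold. Adipocytes express most of the lipogenic list too, and how far the lipogenic difference follows the adipocyte markers was not tested.

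Brown adipocyte genes went the other way from white ones. Of 13 kept, 0 were higher and 4 were lower past the threshold, and the median was -0.76. The 4 were Ucp1, which uncouples respiration to make heat, Cpt1b, which imports fatty acids into mitochondria, the respiratory subunit Cox7a1 and Cidea. Beyond these, Cox8b, a respiratory subunit of brown fat and muscle, was at 116 FPKM against 185, Dio2, which activates thyroid hormone, at 0.952 against 2.30, and Pdk4 at 29.4 against 51.1. Prdm16 and Ppargc1a, regulators of brown fat, were at 1.89 against 1.96 and 1.35 against 1.06. Oxidative phosphorylation subunits as a whole had a median of 0.10 over 74 genes, with Cox7a1 the only one past the threshold.

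**Figure D2:**
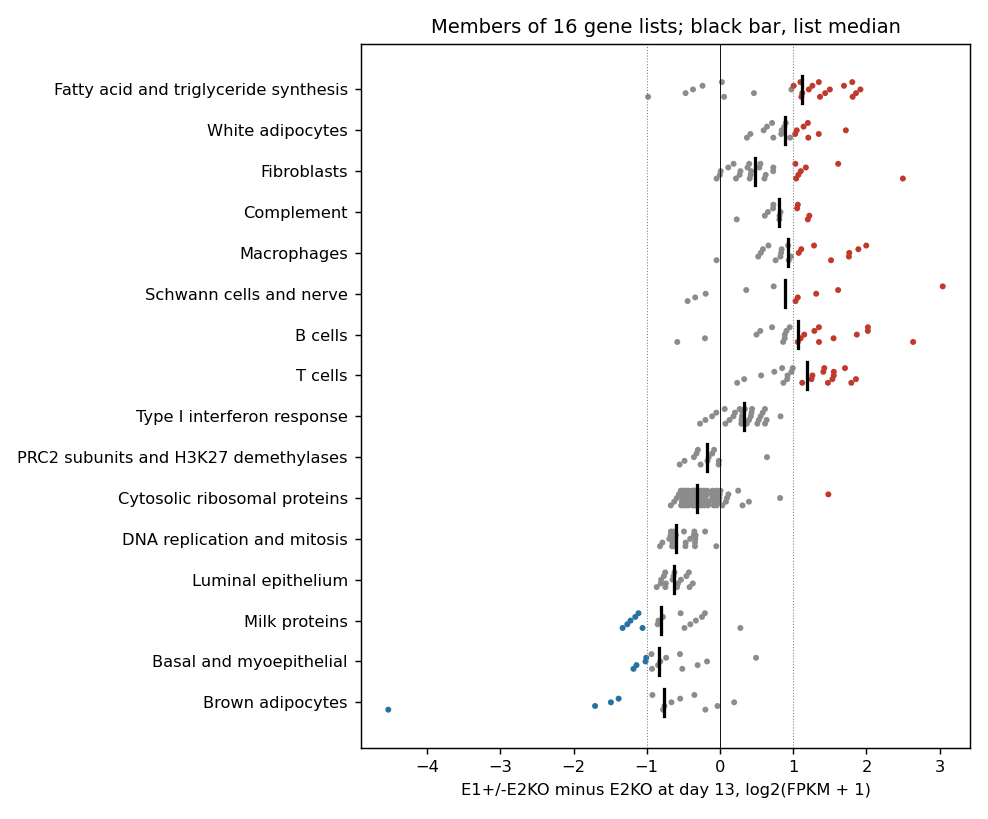
Difference of every kept member (points) of 16 gene lists between E1+/-E2KO and E2KO on day 13, in log2(FPKM + 1) units, with the list median as a bar. Lipogenic, white adipocyte and T cell lists centre near 1, and milk protein, basal and mitosis lists lie below 0.

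Lymphocyte genes were higher in E1+/-E2KO from low levels. All 22 T cell genes kept lay above 0, 12 of 22 were higher past the threshold and the median was 1.19. Only 12 of the 22 reached 1 FPKM in both groups, with a median of 1.42, and the others entered through E1+/-E2KO alone. Over all 27 genes of the list the median was 0.98. Among subunits of the T cell receptor complex, Cd3g was at 11.7 FPKM against 3.33, Cd3e at 5.31 against 1.37 and Cd3d at 5.31 against 1.15. The cytotoxic coreceptor Cd8b1 was at 8.60 against 1.65, its partner Cd8a at 4.63 against 1.03 and the helper coreceptor Cd4 at 3.49 against 1.69. Ccr7, which guides naive cells into lymph nodes, was at 4.36 against 0.547. The signalling proteins Lck, at 8.26 against 2.90, and Lat, at 6.81 against 1.69, the surface proteins Cd2 and Cd5, and Il7r, the interleukin 7 receptor, also passed.

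For B cells, 11 of 21 genes kept were higher past the threshold, 0 were lower and the median was 1.06. Cd79a and Cd79b, the signalling chains of the B cell receptor, were at 10.2 against 0.804 and 9.74 against 1.65, and Ms4a1, which codes for CD20, was at 3.47 against 0.103. Cd37, a tetraspanin, was at 12.8 against 3.70 and Faim3, the receptor for IgM, at 3.72 against 0.292. Cd22, Fcer2a, Spib, Pou2af1 and H2-Ob also passed, with differences from 1.06 for Cd22 to 1.35 for Fcer2a. Of these 21 genes only 5 reached 1 FPKM in both groups, with a median of 0.55, so the others entered through the group in which they were high. Of 6 plasma cell genes kept 3 were higher past the threshold, among them Igj, the joining chain of polymeric antibody, at 32.5 against 8.26, the immune regulator Irf4 at 4.05 against 1.30 and 2010001M09Rik at 6.31 against 0.753. Xbp1, which the secretory epithelium also expresses, was at 302 against 324. Of 8 cytotoxic and NK genes kept 3 were higher past the threshold, the chemokine Ccl5 with a 2.67-fold ratio, the granzyme Gzma at 15.4 against 6.58 and Nkg7 at 12.4 against 5.34. Their list had a median of 0.71 over the 8 kept and 0.44 over all 13.

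Markers of lymph nodes, which lie within some mammary fat pads, were read beside these. Removal of the node is described for virgin glands, and the labels do not say whether it was done for pregnant ones. Of 18 genes of lymph node stroma and homing 11 were kept, 5 were higher past the threshold and 0 lower, with a median of 0.88. That median rests partly on genes that entered through the high group, since it was 0.32 over the 8 genes at 1 FPKM or more in both groups and 0.17 over all 18. The 5 were Cxcl13, the B cell follicle chemokine, at 15.5 against 0.831, the scavenger receptor Marco of node and marginal zone macrophages, Ltb, a lymphocyte cytokine, Il33, an alarmin of stroma, and Siglec1, of node macrophages. The node chemokines Ccl19, Ccl21a, Ccl21b and Ccl21c were listed at 0 in both groups, the last 3 being near-identical copies, and Madcam1, a vessel address protein, was at 2.84 against 6.18. The summed level of the 18 was 414 FPKM in E1+/-E2KO and 594 in E2KO, carried mostly by Clu, at 263 against 491, which epithelium also makes. The part of node tissue in the lymphocyte difference was not tested.

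All 10 genes of antigen presentation by MHC class II lay above 0, with H2-DMb2 and H2-Ob past the threshold and a median of 0.54. The 9 dendritic cell genes kept all did too, with a median of 0.76, which was 0.38 over all 13 of the list. Past the threshold were the chemokine Ccl22, at 3.95 against 0.628, which entered through E1+/-E2KO alone, and Cd83, at 5.18 against 1.78. The interferon responses were smaller. No gene of 28 in the type I response passed the threshold, with a median of 0.32, and 2 of 21 kept in the interferon gamma response were higher, with a median of 0.16. Those 2 were Gbp1 at 11.1 against 3.20, a defence GTPase, and Tgtp2 at 1.18 against 0.0266. The near copy of the latter, Tgtp1, went the other way, and the summed level of Tgtp1 and Tgtp2 gave a difference of -0.21, so the value of either is uncertain.

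Resident macrophage genes were higher as well. Of 20 kept, 19 lay above 0, 8 were higher past the threshold, 0 were lower and the median was 0.93. Fcna, a ficolin that binds bacterial sugars, was at 23.0 FPKM against 5.02, and Timd4, a receptor for dying cells, at 5.34 against 0.870. The lectins Cd209f and Cd209b were at 64.8 against 16.7 and 14.1 against 3.44. The folate receptor Folr2 differed by 1.52. Emr1, which codes for F4/80, was at 21.2 against 8.10, Lyz1 at 61.4 against 27.9 and Lyz2 at 534 against 253. The C1q genes C1qa, C1qb and C1qc lay just under the threshold, at 0.83 to 0.97. Clec4f, of liver macrophages, was listed at 0 in both groups. Cd209g, a further lectin of that family, was at 21.4 against 4.52, and Trem2, a lipid receptor of macrophages, at 8.61 against 1.51.

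Of 12 complement genes kept all lay above 0, 4 passed the threshold and the median was 0.81. Besides Cfd these included C2 at 30.2 against 13.9 and Serping1, the C1 inhibitor, at 139 against 66.4. The 14 neutrophil and acute phase genes kept had a median of 0.27, with Orm1, an acute phase glycoprotein, higher past the threshold at 205 against 68.1 and Chi3l1 lower.

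Among fibroblast genes, 7 of 26 kept were higher past the threshold, 0 were lower and the median was 0.48. The members past it included Pi16 and Dpp4, which mark adventitial progenitor fibroblasts, at 117 against 19.9 and 11.6 against 4.59, with Clec3b at 237 against 76.8 and the matrix protein Dpt at 400.4 against 186. Anxa3, Fbln1 and Ly6a passed with differences of 1.07, 1.04 and 1.03. The collagens were closer, Col1a1 at 321 against 264 and Col3a1 at 787 against 691. Basement membrane genes had a median of 0.04 over 16, with the laminin chain Lama3 lower at 2.71 against 6.43, and the matrix proteases and their inhibitors 0.21 over 16, with none past the threshold.

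Schwann cell and nerve genes were higher in part. Of 14 only 10 were kept, 5 were higher past the threshold, 0 lower, and the median was 0.88. Mbp, a major protein of the myelin sheath, was at 45.1 FPKM against 14.1, a 3.21-fold ratio. Prx, also of the sheath, and Ngfr, the neurotrophin receptor, also passed. Sox10, which mammary epithelium expresses too, was at 69.4 against 94.6 and S100b, shared with fat cells, at 5.92 against 4.40.

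Vessel genes stayed closer. Blood endothelium had 0 of 15 past the threshold and a median of -0.12, which turned positive under a common sum. Smooth muscle and pericyte genes had 0 of 9 and 0.29, and lymphatic endothelium had 1 of 5 kept higher, Lyve1 at 15.7 against 5.73, and a median of 0.07. Skeletal muscle had 1 of 11 kept higher, Myl1 at 29.5 against 13.1, and a median of 0.32, and epidermis 1 of 3 kept higher, Krtdap, with a median of 0.17, lists whose medians changed sign under other settings.

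Transcripts with uncertain assignment stood at the extremes. Hba-a2 was at 174 FPKM against 0.0720 and Hba-a1 at 0.340 against 252. These alpha globin genes are near-identical copies, and their sum was 174.0 against 252, a difference of -0.53, so neither value can be read alone. The beta globins were higher, Hbb-b2 at 156 against 35.5, Hbb-b1 at 78.5 against 39.2 and Beta-s at 1692 against 751, and these too are close copies. Of 7 erythroid genes kept 3 were higher and 1 lower past the threshold, with a median of 0.99 that was 0.19 over all 12 with values. Alas2, the erythroid haem synthesis enzyme, was at 39.0 against 19.2. Mup10 was at 163 against 39.8 and Mup3 at 6.84 against 1.16, from a large family of near-identical urinary protein genes. Of 10 liver genes only 4 were kept, and all 4 were higher past the threshold from low levels. Beside Mup3 these were Alb, albumin, at 16.7 against 4.57, Apoa2 at 6.62 against 1.23 and Fabp1 at 2.94 against 0.217. The median was 1.74 over the 4 kept and 0.77 over all 10, and Fabp1 entered through E1+/-E2KO alone.

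Several structural RNAs were lower. Rmrp and Rpph1, the RNA parts of the ribonucleases MRP and P, were at 0.874 FPKM against 51.6 and 0.730 against 48.9. Mtrnr2l was at 84.4 against 236, and Lars2, the mitochondrial leucyl-tRNA synthetase, at 39.1 against 489. These libraries were made from poly(A) RNA, and the part of RNA selection in these values was not tested. The list of ribosomal RNA and related transcripts had 3 of 4 kept lower past the threshold. The cytosolic ribosomal protein genes had a median of -0.31 over 84, with 74 below 0 and only Rps27, a gene with many processed copies, higher past the threshold at 18.3 against 5.92.

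Stress and housekeeping genes lay near 0. Immediate early genes, which respond within minutes to handling, had 0 of 21 past the threshold and a median of 0.02. Medians were 0.04 over 16 circadian clock genes, -0.06 over 23 genes of ER folding, 0.01 over 15 of apoptosis, -0.02 over 11 glucocorticoid and metallothionein genes and -0.13 over 14 ubiquitously expressed genes. None of these lists had a member past the threshold except the glucocorticoid and metallothionein one, in which Mt2, a metal-binding protein, was lower at 171 FPKM against 471. All but the clock and immediate early medians changed sign under a common sum or another setting.

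Some of the largest differences fell in no list. Higher were Rbp4, the retinol carrier secreted by fat and liver, at 292 FPKM against 77.2, Smpd3, a sphingomyelinase, at 6.49 against 0.902, Mosc1, a mitochondrial reductase, at 12.1 against 2.13 and Myoc, an extracellular protein, at 5.27 against 0.458. Gm6484 was at 29.0 against 6.27. Lower were Wif1, a secreted WNT inhibitor, at 4.63 against 14.3, the tetraspanin Tspan8 at 3.32 against 12.2, the mucin-like Fcgbp at 14.9 against 43.5, Trim12a at 2.20 against 7.08, Kctd4 at 1.47 against 5.21, Gm266 at 13.2 against 35.0 and 3110079O15Rik at 2.06 against 7.13.

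**Figure D3:**
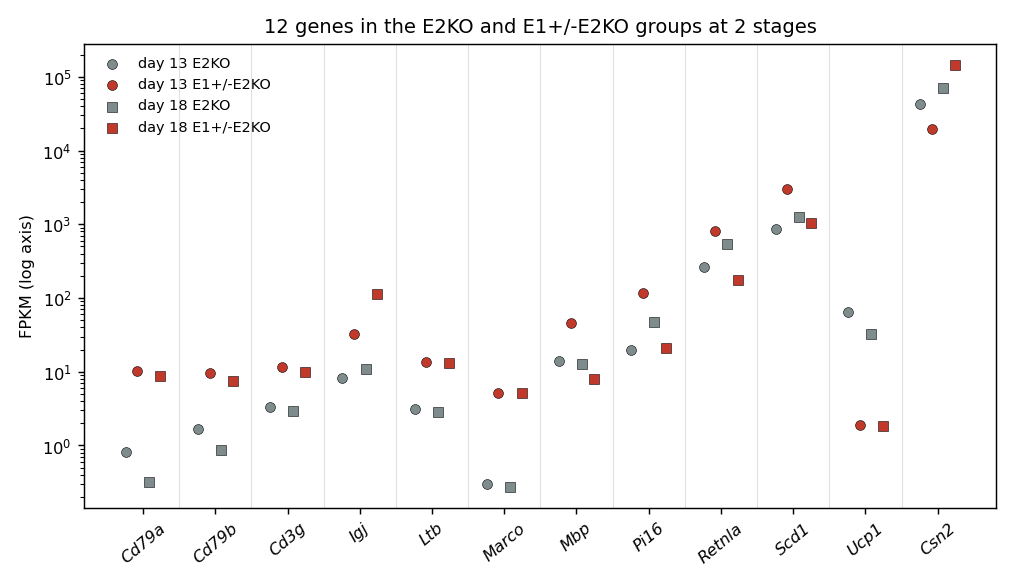
Pooled FPKM (log axis) of 12 genes in the E2KO and E1+/-E2KO groups on days 13 and 18 of pregnancy, 1 value per group with no error. Csn2 is lower in E1+/-E2KO on day 13 and higher on day 18, while Cd79a is higher in E1+/-E2KO on both days.

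The same genotypes on day 18 gave a comparison that shares no library with day 13. Over the genes kept on day 13, 147 (1.10%) were higher and 176 (1.31%) lower past the threshold in E1+/-E2KO than in E2KO on day 18, with a median of -0.00. This split depended on scale, since the summed FPKM on day 18 was 1151971 in E1+/-E2KO and 787794 in E2KO. A common sum moved the median of all genes by -0.43 and gave 64 higher and 664 lower, and a common sum without milk proteins moved it by -0.23 and gave 87 and 319. Of the 399 genes higher on day 13, 40 (10.0%) were higher past the threshold on day 18 and 45 (11.3%) lower. The order was the other way among the 294 protein-coding ones, with 29 (9.86%) higher on day 18 and 21 (7.14%) lower. Of the 95 genes lower on day 13, 12 (12.6%) were lower and 8 (8.42%) higher. Across all genes kept, the differences on the 2 days had Pearson's r of -0.14 and Spearman's rho of -0.20, and across 9749 protein-coding genes with at least 5 FPKM on day 13 r was -0.16 and rho -0.21. These are correlations across genes, which share libraries and are not independent replicates.

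Lymphocyte genes kept their direction on both days. Of the 294 protein-coding genes higher on day 13, 29 were higher past the threshold on day 18, and 16 of those 29 belong to the B, plasma, T or NK lists, which held 29 of the 294 and 57 of all genes kept. All 22 T cell genes kept on day 13 lay above 0 on both days. Their median on day 18 was 0.78, and it was 0.65 over all 27 of the list. Of 21 B cell genes kept 19 lay above 0 on both days, with a median of 0.58 on day 18. Rescaled to a common sum, the day 18 medians of the kept T and B cell genes were 0.50 and 0.36. Igj was at 113 FPKM against 10.8 on day 18, Cd79a at 8.70 against 0.319, Cd3d at 5.92 against 1.21 and Ltb at 13.3 against 2.80. Marco was at 5.09 against 0.274. Outside those lists the 29 also held Ccl22 at 4.62 against 0.563, Gbp1 at 12.4 against 3.65, the MHC class I gene H2-Q10, which has close copies, at 21.3 against 8.53, and Serinc3, a membrane protein, at 366 against 161. Cxcl13 was closer on day 18, at 7.05 against 4.14. Cdkn2a was at 1.90 against 0.455, a 4.19-fold ratio that the pseudocount left just under the threshold.

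Milk protein genes had the opposite sign on day 18, when 6 of 16 were higher past the threshold, 0 were lower and the median was 0.91. Csn2 was at 144169 FPKM in E1+/-E2KO against 70592 in E2KO, Wap at 36766 against 12683 and Lalba at 3153 against 717. The 15 members below 0 on day 13 were all above 0 on day 18. The day 18 median was 0.36 under a common sum and 0.62 under a common sum without milk proteins, both still above 0. Milk fat globule genes had a median of 1.11 on day 18 and alveolar transporters 0.92, against -0.38 and -0.32 on day 13, and these also stayed above 0 under those scalings. Basal genes at 0.31, luminal genes at 0.01 and DNA replication and mitosis genes at 0.28 on day 18 did not, since each turned negative under a common sum. Of the 26 replication and mitosis genes 23 were above 0 on day 18 as deposited and none on day 13.

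Fat genes did not keep their direction. The white adipocyte median was -0.54 on day 18, with 5 of 18 lower past the threshold and 15 below 0, and it stayed below 0 under every scaling tried. Adipoq was at 649 FPKM in E1+/-E2KO against 1198 in E2KO, while Retn, at 586 against 481, stayed above. The lipogenic median was 0.05, with 1 higher and 1 lower, and turned negative under a common sum. Fasn was at 182 against 208 and Scd1 at 1025 against 1245. Dgat2, at 114 against 239, was higher on day 13 and lower on day 18 past the threshold. Brown adipocyte genes kept their sign, with a median of -0.58 on day 18 and 11 of 13 below 0 on both days, but Cidea was at 233 against 59.7, the reverse of day 13.

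Stromal genes had day 18 medians of -0.17 for fibroblasts, -0.01 for macrophages, -0.20 for complement and -0.17 for Schwann cells and nerve. Under a common sum these were -0.68, -0.48, -0.71 and -0.37. Members above 0 on day 13 and below 0 on day 18 numbered 16 of 26 for fibroblasts and 9 of 20 for macrophages. For complement they numbered 8 of 12. For Schwann cells and nerve they numbered 7 of 10, and the other 3 went from below 0 to above 0. Among the fibroblast and macrophage genes that reversed, Pi16 was at 20.9 FPKM against 47.3 on day 18 and Fcna at 3.77 against 9.28. Retnla, a cytokine of fat pad macrophages chosen after its values were seen, was at 815 against 266 on day 13 and 175 against 536 on day 18. Of the cell cycle inhibitors, Cdkn2b and Cdkn2c lay below 0 on day 18, at 1.32 against 3.24 and 45.0 against 57.8. Hox genes had a median of -0.23, with 19 of 23 below 0, and Hoxc8 was at 4.69 against 8.27. Among the 21 protein-coding genes higher on day 13 and lower on day 18 were also Sfrp4, a secreted WNT modulator, at 12.2 against 2.53 and then 0.815 against 3.44, Ptger3, a prostaglandin receptor, at 19.6 against 6.14 and then 3.59 against 8.73, and the protease inhibitor Serpina3n at 185 against 70.6 and then 54.8 against 134. Mest was at 26.2 against 57.6 on day 18. The 6 protein-coding genes lower on both days were Hba-a1, Ucp1, Cpt1b, Trim12a, the chemokine Ccl20 at 0.924 against 3.73 and then 0.308 against 2.82, and Gm5506 at 18.4 against 41.5 and then 8.37 against 41.0. The 4 lower then higher were Csn2, Cidea, 3110079O15Rik and Lao1, an amino acid oxidase of milk, at 21.3 against 52.0 and then 983 against 343. All 21 immediate early genes lay below 0 on day 18, with 1 lower past the threshold and a median of -0.47, which was -0.84 under a common sum. Type I interferon genes, with none past the threshold on day 13, had 8 of 28 higher past the threshold on day 18 and a median of 0.52, which was 0.03 under a common sum.

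**Figure D4:**
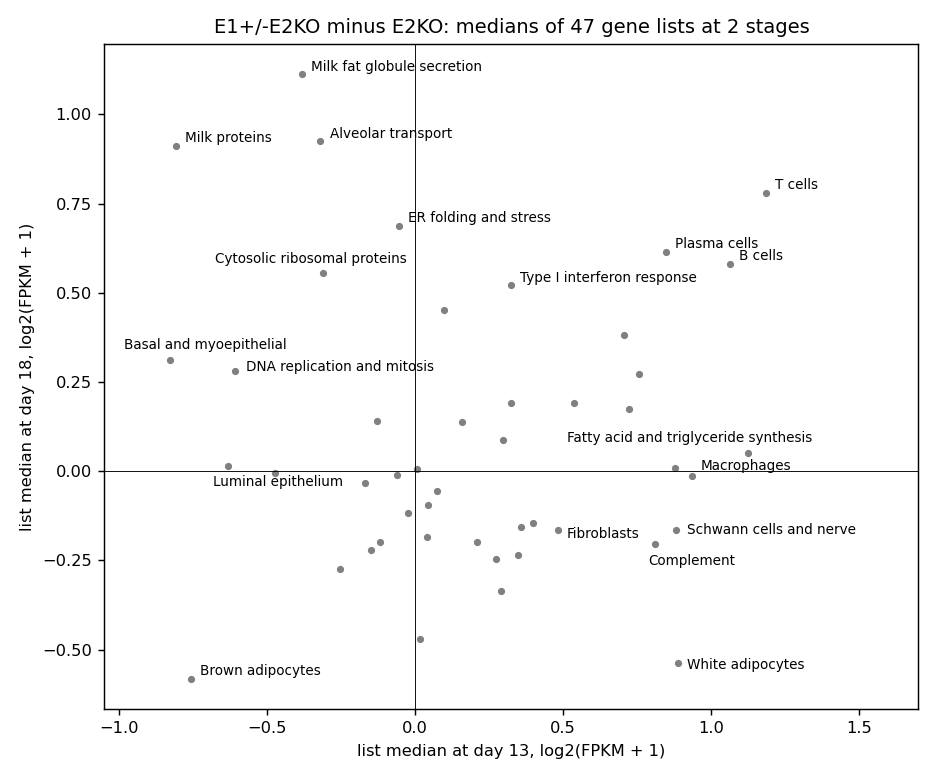
Median difference of 47 gene lists between E1+/-E2KO and E2KO on day 13 (horizontal axis) and day 18 (vertical axis), in log2(FPKM + 1) units. T, B and plasma cell lists lie in the upper right, milk lists in the upper left and white adipocytes in the lower right. The erythroid list is among those not drawn.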

How the data were processed

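Values are FPKM per gene and group, deposited by the authors in 1 table, in which each column pools the libraries of a group. The sources do not say how. TopHat, Bowtie, BWA, Cuffdiff, Cufflinks, HOMER, CASAVA, FastQC, Trim Galore and the build mm9 are named without roles, per the submitters' processing notes.

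Genes with at least 1 FPKM in either group were kept, a pseudocount of 1 was added, and differences of log2 values were taken with Python 3.11.15, pandas 2.3.3 and NumPy 2.4.6. Figures used matplotlib 3.10.9. The code was tested on simulated data. A model across genes could not be fitted with 1 value per group. The 48 gene lists and 4 families named by symbol, like the comparison itself, were chosen with earlier results of these data known. Named genes are Ezh1 and Ezh2, the 20 largest differences in each direction among protein-coding genes with at least 5 FPKM, and list members past the threshold or with high levels. Other genes were named after their values were seen, and a few genes within the rule were left out. Gene types came from RefSeq (GRCm38.p6) by symbol for 20004 genes and synonym for 2336, with 212 unmatched. Since the table uses mm9, RefSeq served for names, neighbours and promoters alone. Alternatives were other pseudocounts, filters, scalings, a higher threshold and protein-coding genes alone. Chromatin libraries were not analysed here.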

Additional observations from a re-analysis of the deposited data

Results flagged for a closer look

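In the same genotype comparison, 3 lists had a median of 0.5 or more in size on both days with opposite signs, and the difference between days was not tested. Other lists also changed sign, with a smaller median on at least 1 day. Milk proteins had a median of -0.81 on day 13 and 0.91 on day 18. White adipocytes had 0.89 and -0.54. Erythroid cells had 0.99 and -4.24, with 4 of 7 members above 0 on day 13 and below 0 on day 18, and the globin copies among them are uncertain. Over all 12 erythroid genes with values the medians were 0.19 and -1.02, so this list met the rule only over the genes kept. Which lists met this rule depended on scale. Under a common sum milk proteins had -0.67 and 0.36 and no longer met it. Complement, at 0.94 and -0.71, fibroblasts, at 0.62 and -0.68, and imprinted growth genes, at 0.50 and -0.66, then did.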

How the results depend on the processing

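No paired analysis was possible because each column pools the libraries of a group and carries no replicate number. For the same reason no library could be left out. With a pseudocount of 0.1, 663 genes were higher and 150 lower on day 13, and of these 91 were higher on both days, 104 higher then lower and 23 lower on both. With a pseudocount of 5 these 5 counts were 167, 49, 15, 23 and 6, and 7 lists, against 15, had a median of 0.5 or more. A threshold of 2 gave 77 higher and 32 lower, of which 7 were higher on both days, 14 higher then lower, 5 lower on both and 2 lower then higher. Protein-coding genes alone gave 50 lower, with 21 higher then lower, 6 lower on both days and 4 lower then higher. A common sum gave 155 higher then lower and 3 lower then higher, and a common sum without milk proteins 84 higher then lower. These shifts follow from the construction of each setting. Of the 21 lists with a median of 0.5 or more in size, none changed sign under any alternative. Of the 40 largest protein-coding differences, none changed sign and 9 came under the threshold in at least 1 setting. Without replicates or read depth, no counting error can be given for genes of few FPKM.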
